A study of Mus musculus with 61 samples.

Results

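The transcriptome of stembryos that lack CBS1, a CTCF binding site of the HoxD cluster, was compared with that of wild-type stembryos across all genes, with attention to genes outside the cluster and to the change shared by 96 h and 120 h of culture. The members are 10 of the 61 RNA-seq libraries of the series: 2 Del(CBS1) libraries at 96 h, 2 at 120 h, and wild-type replicates 1 to 3 at each of these stages. They were chosen by condition and replicate number, which leaves out wild-type replicate 4 and the wild-type time course, and the table lists 55052 genes for each. Stembryos, also called gastruloids, form when aggregated mouse embryonic stem (mES) cells receive a pulse of Chiron, a Wnt agonist, after which they elongate and make derivatives of the tail bud. Wild-type cells are EmbryoMax 129/SVEV mES cells without an engineered allele, and Del(CBS1), like the lines compared with it further on, was made in them. Del(CBS1-5) and Del(sub-TAD1), which enter only as single values, in the ranges of the other libraries and in the fit of all 61 libraries, were instead derived from blastocysts of mice kept on a BL6 × CBA hybrid background, and Del(sub-TAD1) animals carried a fosmid transgene that replaces the deleted Mtx2. Del(CBS1) is a homozygous CRISPR/Cas9 deletion expanded from 1 picked clone, so the deletion and the clone cannot be told apart in these libraries. Each library pools stembryos from 1 to 4 plates of 96 wells, and nothing in the labels ties a library to a separate differentiation, so the p-values measure only the spread between these libraries.

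CTCF binds a directional DNA motif and, with the ring-shaped cohesin complex, halts the extrusion of chromatin loops, which insulates stretches of a chromosome from each other. At HoxD, which encodes homeodomain proteins that specify position along the body axis, CTCF sites separate genes that are switched on one after the other. Stembryos hold neural, mesodermal, endodermal and vascular cells, and in their bulk RNA more cells of a type and more RNA per cell cannot be told apart.

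Expression is given in FPKM, a fragment count corrected for transcript length and for sequencing depth. A change is the difference of mean log2(FPKM + 0.1), Del(CBS1) minus wild type, from limma's moderated test. The effect was estimated at each stage, and the shared change is the mean of both. A gene passed when its Benjamini-Hochberg adjusted p was below 0.05 over the 14705 genes tested, which had a group mean of at least 1 FPKM. Values of single libraries are given in the order of their replicate numbers. The added 0.1 shrinks the change of genes at low levels. Depth, estimated from the steps between low values, lay between 22.32 and 29.22 M fragments (median 24.44 M).

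Wild-type replicate 3 stood apart from the other libraries at both stages. Across genes, its log2 values correlated with those of the other libraries at 0.907 to 0.918 at 96 h, whereas the other pairs lay between 0.942 and 0.954. At 120 h the corresponding ranges were 0.909 to 0.913 and 0.936 to 0.958. At both stages, 597 genes lay at least 1 log2 unit from the mean of replicates 1 and 2 in the same direction in replicate 3, 345 of them higher. The naive pluripotency list was higher in replicate 3. The summed level of its 20 genes was 432 and 412 FPKM in replicate 3 at 96 h and 120 h, against 76.5 and 81.8 FPKM in replicates 1 and 2 at 96 h and 65.4 and 65.0 FPKM at 120 h. Results are therefore given with all 3 wild-type replicates, as the comparison was defined, and without replicate 3, an alternative chosen after seeing the data. Markers of the labelled tissue were present in all 10 libraries, with 18 genes of the presomitic mesoderm and segmentation clock summing to between 1216 and 1445 FPKM at 96 h and between 248 and 354 FPKM at 120 h.

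The shared change comprised 88 genes, 0.598% of those tested, of which 54 were higher in Del(CBS1) (0.367%) and 34 lower (0.231%). Of these, 87 lay outside the HoxD cluster (chr2:74668310-74765142, mm10), 54 higher and 33 lower. At 96 h alone, 30 genes passed (0.204%), 17 higher (0.116%) and 13 lower (0.0884%). At 120 h alone, 59 genes passed (0.401%), 48 higher (0.326%) and 11 lower (0.0748%). Only Xlr3b passed at both stages taken singly. The median change of all tested genes was -0.00644 for the shared change. Without wild-type replicate 3 at either stage, the shared change comprised 804 genes (5.51%), among them all 88, with 455 genes (3.12%) at 96 h and 393 (2.69%) at 120 h. With the replicate number as a block, 191 genes passed in the shared change. Adding wild-type replicate 4 reduced the shared change to 19 genes, all among the 88, the 96 h count to 1 and the 120 h count to 32. Replicate 4 differed from the 10 libraries in the steps between its low values, as given with the processing.

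**Figure D1:**
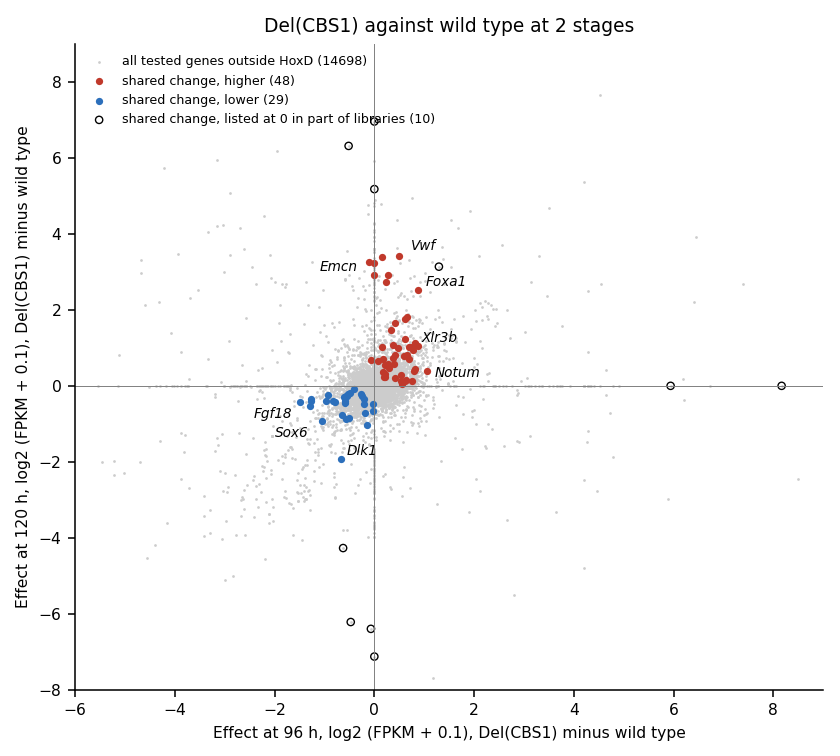
Effect of the deletion at 96 h (x axis) and 120 h (y axis), both in log2(FPKM + 0.1), Del(CBS1) minus wild type, for 14698 tested genes outside HoxD (grey, 8 of them outside the axes). Red and blue points are the 48 higher and 29 lower genes of the shared change, and open circles the 10 genes of the shared change that are listed at 0 in part of the libraries; the topmost red points include Vwf and Emcn, at 0.50 and 0 at 96 h and at 3.42 and 3.23 at 120 h.

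Of the 87 genes, 10 were listed at exactly 0 in at least 1 library and at 1 FPKM or more in another library of the same stage. An exact 0 can be a failed estimate of the quantification program, so these are given by their values only. Atat1, a tubulin acetyltransferase, was listed at 0 in all libraries of 96 h and in Del(CBS1) at 120 h, and at 12.8, 12.3 and 16.8 FPKM in wild type at 120 h. The tumor suppressor Rb1 was at 0 in both Del(CBS1) libraries at 120 h and at 8.74, 8.66 and 7.604 FPKM in wild type, with 6.36 and 5.64 FPKM in Del(CBS1) at 96 h. Pcsk7, a proprotein convertase, and Gng3, a G-protein subunit, were likewise at 0 in Del(CBS1) at 120 h, against 7.201, 7.21 and 7.59 and 1.34, 1.49 and 3.03 FPKM in wild type. In the opposite pattern, the small nucleolar RNA Snord89 was at 0 in the other libraries and at 12.4 and 12.2 FPKM in Del(CBS1) at 120 h. Prrg2 and the predicted gene Gm22208 had values only in Del(CBS1) at 96 h, at 5.42 and 6.73 and 30.5 and 26.9 FPKM. Kif12, a kinesin, was at 0 in 1 wild-type library of 120 h, with 0.0401, 0 and 0.1499 FPKM in wild type and 1.08 and 1.41 FPKM in Del(CBS1). Myl3, a myosin light chain of ventricular heart and slow muscle, was listed at 0 in all wild-type and all 96 h libraries and at 2.89 and 4.27 FPKM in Del(CBS1) at 120 h.

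The other 77 genes of the shared change, 48 higher and 29 lower, changed by 0.21 to 1.96 log2 units. In 64 of them (83.1%) the Del(CBS1) and wild-type libraries did not overlap at either stage and lay apart in the same direction, compared with 8.79% of all tested genes, a description since non-overlap and the test use the same values. Only 12 reached 1 log2 unit, 11 of them higher. Of the 48 that were higher, 38 had the larger effect at 120 h, and of the 29 that were lower, 18 had the larger effect at 96 h.

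The gene with the smallest adjusted p that was not listed at 0 in part of the libraries was Xlr3b (ENSMUSG00000073125, chrX:73192222-73202920), an imprinted X-linked gene of the XLR family. It was at 5.85 and 5.09 FPKM in Del(CBS1) and at 3.23, 3.06 and 3.27 FPKM in wild type at 96 h. At 120 h it was at 6.49 and 6.51 FPKM against 3.28, 2.98 and 3.27 FPKM. The groups did not overlap at either stage, and replicate 3 lay close to the other wild-type libraries. The shared change was 0.88 ± 0.0536 (SE; 4 Del(CBS1) and 6 wild-type libraries; adjusted p = 9.21e-04 in limma), with adjusted p = 0.0314 at 96 h and 0.00411 at 120 h. The level of Xlr3b differed widely between wild-type libraries, with 0.941 FPKM as the lowest of the 4 wild-type libraries of 120 h and 0.458 FPKM as the higher of the 2 time-course libraries of 120 h.

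Chrd (ENSMUSG00000006958, chr16:20733127-20742384), a secreted BMP antagonist made by node and notochord, was also higher at both stages. Its level was 2.24 and 2.93 FPKM in Del(CBS1) against 1.45, 1.497 and 1.298 FPKM in wild type at 96 h, and 3.13 and 3.19 against 1.41, 1.31 and 1.44 FPKM at 120 h. The shared change was 0.97 ± 0.081 (SE; adjusted p = 0.00625 in limma). Foxa1, a forkhead factor of endoderm and floor plate, was at 1.24 and 1.49 FPKM against 0.867, 0.714 and 0.531 FPKM at 96 h and at 3.004 and 3.74 against 0.374, 0.5699 and 0.582 FPKM at 120 h (shared change 1.70 ± 0.162, adjusted p = 0.0129). The Hedgehog receptor and target Ptch1 was at 13.8 and 14.1 and 11.9, 11.3 and 10.1 FPKM at 96 h, and at 24.4 and 27.1 and 8.12, 8.17 and 11.6 FPKM at 120 h (0.90 ± 0.113, adjusted p = 0.0247). In all 3 genes the Del(CBS1) libraries lay above every wild-type library of their stage. Foxa1 reached the filter of 1 FPKM only through Del(CBS1), with wild-type means of 0.704 FPKM at 96 h and 0.509 FPKM at 120 h. Its rise was therefore set in part by the filter.

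Genes of epithelia and matrix were among those that rose. Ocln, a tight-junction protein, was at 2.11 and 2.29 FPKM against 1.119, 1.21 and 1.32 FPKM at 96 h and at 1.84 and 1.85 against 0.703, 0.7201 and 1.05 FPKM at 120 h. Stard10, a lipid-transfer protein, Smoc2, a secreted calcium-binding matrix protein, Frem1, an extracellular protein of basement membranes, and Adgrg1, an adhesion G-protein-coupled receptor, rose by 0.86, 0.92, 1.18 and 1.04 (adjusted p = 0.0129, 0.0298, 0.0298 and 0.0499). The zinc transporter Slc39a8 rose by 1.23, Cmtm8 by 0.97 and Hid1 by 0.86 (adjusted p = 0.0247, 0.021 and 0.034). The themes of these genes were noted after their values were seen and were not tested as a list.

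Among the genes that fell, Dlk1 (ENSMUSG00000040856, chr12:109452849-109463336), an imprinted Notch-related ligand, had the largest shared change apart from genes listed at 0. It was at 3.87 and 3.76 FPKM in Del(CBS1) and at 5.53, 4.804 and 8.56 FPKM in wild type at 96 h. At 120 h, when wild-type levels were higher, it was at 4.004 and 4.24 FPKM against 14.2, 13.9 and 20.4 FPKM. Replicate 3 held the highest wild-type value at both stages, and without it the call at 120 h remained (adjusted p = 8.80e-04). The shared change was -1.30 ± 0.182 (adjusted p = 0.0346 in limma).

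Fgf18, a fibroblast growth factor, also fell. It was at 3.902 and 4.44 FPKM against 12.2, 14.9 and 9.11 FPKM at 96 h and at 14.1 and 15 against 18.6, 18.01 and 22.5 FPKM at 120 h. Bmp3, a member of the BMP family, was near 0 at 96 h, at 0.0266 and 0.0537 against 0.219, 0.248 and 0.237 FPKM, and at 7.16 and 7.21 against 8.89, 9.63 and 10 FPKM at 120 h. The groups did not overlap for either gene at either stage.

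Sox6, a factor of mesodermal and neural differentiation, was at 0.465 and 0.543 FPKM against 1.34, 1.26 and 0.895 FPKM at 96 h and at 1.21 and 1.01 against 1.904, 2.26 and 2.46 FPKM at 120 h. Pax6, a homeodomain factor of the neural tube, was at 0.325 and 0.388 against 0.612, 0.602 and 0.637 FPKM and at 1.13 and 1.36 against 2.27, 2.44 and 1.87 FPKM. Eya1, a transcriptional co-activator and phosphatase of presomitic and somitic mesoderm, was at 2.02 and 1.97 against 3.798, 3.36 and 3.44 FPKM and at 12.9 and 12.5 against 15.4, 16.6 and 19.5 FPKM. Every Del(CBS1) value of these 3 genes was below every wild-type value of its stage. Their shared changes were -0.99, -0.71 and -0.61 (adjusted p = 0.0281, 0.0247 and 0.0242 in limma).

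Lfng, the glycosyltransferase that modifies Notch in the segmentation clock, was at 40.6 and 46.9 FPKM in Del(CBS1) against 68.6, 70.6 and 55.3 FPKM in wild type at 96 h, and at 14.5 and 11.9 against 25.5, 21.98 and 24.6 FPKM at 120 h (-0.71 ± 0.1, adjusted p = 0.0347). It was the only gene of the 18 tested for presomitic mesoderm and the segmentation clock that passed in the shared change, and the median of the list was -0.211. Without replicate 3, 1 rose and 4 fell in this list. Cyp27a1, a sterol hydroxylase, fell by 0.69, Gpat3, an acyltransferase of glycerolipid synthesis, by 0.68 and Abca1, a cholesterol exporter, by 0.62 on the log2 scale (adjusted p = 0.0298, 0.0499 and 0.0366). Of the 24 genes for cholesterol and fatty acid synthesis, none passed in the shared change, with a median of -0.033, and without wild-type replicate 3 there was 1, with a median of 0.005. Vat1l, Hspa12a and Mertk, a receptor tyrosine kinase, fell by 0.60, 0.59 and 0.52 (adjusted p = 0.0351, 0.0247 and 0.0385).

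**Figure D2:**
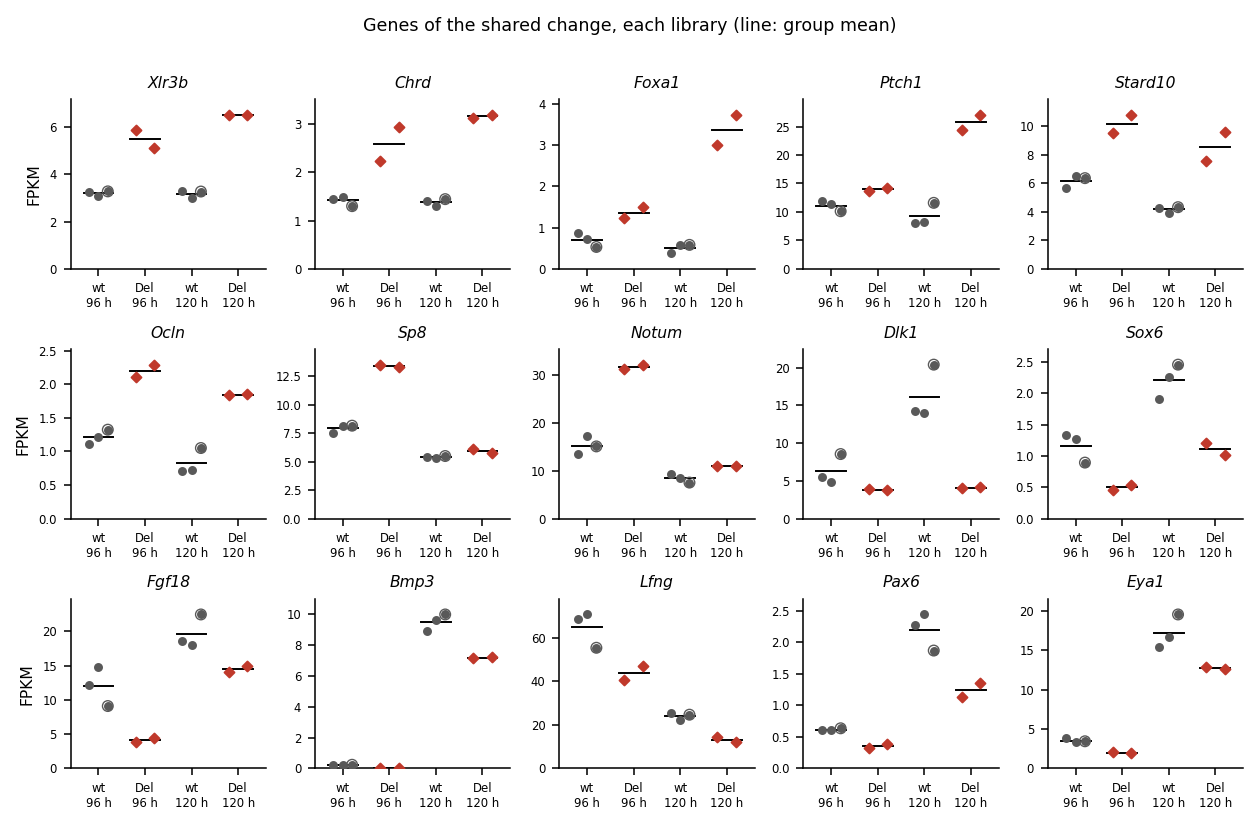
FPKM of 15 genes of the shared change in each of the 10 libraries. Dots are wild-type libraries, with replicate 3 ringed, diamonds are Del(CBS1) libraries and lines are group means; in every panel the Del(CBS1) libraries lie on one side of the wild-type libraries at both stages, a separation that the choice of most of these genes required and that 8.79% of all tested genes show.

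Signaling genes of the elongating tip changed in either direction. Notum (ENSMUSG00000042988, chr11:120653788-120661175), a secreted Wnt inhibitor and Wnt target, was at 31.2 and 32.1 FPKM against 13.4, 17.2 and 15.03 FPKM at 96 h (effect 1.06 ± 0.121, adjusted p = 0.0405) and at 10.9 and 11.05 against 9.36, 8.46 and 7.502 FPKM at 120 h. Sp8, a zinc-finger factor of neuro-mesodermal progenitors, was at 13.5 and 13.3 against 7.51, 8.17 and 8.16 FPKM at 96 h (0.75 ± 0.0563, adjusted p = 0.00862) and at 6.12 and 5.78 against 5.41, 5.36 and 5.497 FPKM at 120 h. Id1, a BMP target, rose by 0.56 (adjusted p = 0.0157). Lef1, a transcription factor of the Wnt pathway, fell by 0.35 and Wnt5a, a Wnt ligand of the tail bud, by 0.25 (adjusted p = 0.0499 and 0.0298). Of the lists these genes belong to, 1 rose and 1 fell of 14 tested Wnt targets (median 0.174), 1 rose and 1 fell of 15 genes of the neuro-mesodermal progenitor and tail bud (median 0.248), and 2 rose of 17 genes of BMP and Nodal signaling (median 0.087). Without wild-type replicate 3, 4 rose and 1 fell, 6 rose and 1 fell, and 6 rose and 3 fell in these 3 lists, with medians of 0.196, 0.395 and 0.165. None of 14 tested targets of FGF and ERK and none of 11 retinoic acid genes passed, with medians of 0.029 and 0.168, and none without replicate 3 (medians 0.103 and 0.11).

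The list with the most passing genes at 120 h was that of endothelium and blood. Endothelial cells line blood vessels and are held together by VE-cadherin and claudin-5. Of the 11 tested genes of the endothelium and blood list, 7 passed at 120 h, all higher in Del(CBS1), beside 0.326% of all tested genes. The median effect of the list was 2.65. The filter kept 11 of the 19 listed genes. Cdh5, Cldn5, Emcn, Esam, Kdr, Plvap, Sox18 and Tie1 reached its 1 FPKM only through Del(CBS1) at 120 h. For these genes a higher level there was set in part by the filter, so the count, direction and median are a description. At 96 h none passed, 2 had an unadjusted p under 0.05 and the median was -0.025. In the shared change 2 passed. Without replicate 3 all 11 passed at 120 h, with a median of 2.82. When the variance was allowed to follow expression level, 2 of the 11 passed at 120 h.

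Cdh5 (VE-cadherin; ENSMUSG00000031871, chr8:104101625-104144511) was at 1.73 and 2.58 FPKM in Del(CBS1) at 120 h and at 0.0987, 0.107 and 0.133 FPKM in wild type, an effect of 3.38 ± 0.187 (SE; 2 and 3 libraries; adjusted p = 6.46e-04 in limma). At 96 h it was at 0.0887 and 0.0625 FPKM in Del(CBS1) and 0.0843, 0.0532 and 0.0382 FPKM in wild type, and the groups overlapped. Cldn5 (claudin-5; chr16:18776847-18778262) was at 3.82 and 5.74 FPKM against 0.267, 0.4905 and 0.468 FPKM at 120 h. From its single transcript of 1416 bases and the estimated depth, this is 108 and 177 fragments against about 8, 15 and 15, and its effect was 3.27 ± 0.28 (adjusted p = 0.00717). The effects of Cdh5 and Cldn5 were larger at 120 h than at 96 h by 3.23 and 4.51 log2 units (adjusted p = 0.00774 and 0.00999 for the difference between stages). At 96 h Cldn5 was at 0.0339 and 0 FPKM in Del(CBS1) and at 0.225, 0.13 and 0.175 FPKM in wild type. These are about 1 and 0 fragments against 7, 4 and 6, and the effect was -1.24 (adjusted p = 0.224 in limma). The difference of 4.51 for Cldn5 includes this effect of very few fragments. As both genes entered the test only through Del(CBS1) at 120 h, a larger effect there was set in part by the filter.

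The other list members that passed at 120 h were Emcn (endomucin), at 1.09 and 1.94 FPKM against 0.0173, 0.0686 and 0.131 FPKM, the angiopoietin-pathway receptor Tie1, at 1.21 and 2.11 against 0.0746, 0.167 and 0.159 FPKM, and the transcription factor Sox18, at 1.43 and 1.79 against 0.173, 0.113 and 0.241 FPKM. Esam, a junctional adhesion molecule, was at 1.99 and 2.47 against 0.296, 0.357 and 0.253 FPKM, and Egfl7, a secreted protein of endothelium that was well expressed in all libraries, at 18.2 and 21.05 against 13.8, 12.7 and 12.6 FPKM. Each of these groups was separated at 120 h. The effects were 3.23, 2.89, 2.65, 2.53 and 0.59 (adjusted p = 0.00895, 0.0351, 0.024, 0.0235 and 0.0452 in limma).

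Other endothelial genes passed at 120 h too, of which Cd34 and Flt4 were picked after their values were seen. Vwf, the blood-clotting factor of endothelial cells, was at 3.41 and 3.42 FPKM in Del(CBS1) and at 0.112, 0.202 and 0.452 FPKM in wild type at 120 h. Cd34, a surface glycoprotein of endothelial and blood progenitors, was at 2.86 and 3.25 against 0.297, 0.349 and 0.484 FPKM, and Erg, an ETS transcription factor of endothelium, at 1.34 and 1.401 against 0.158, 0.0283 and 0.126 FPKM. Their effects at 120 h were 3.42, 2.74 and 2.91 (adjusted p = 0.011, 0.00898 and 0.00895), and Flt4, the receptor for lymphatic VEGF ligands, rose by 2.62 (adjusted p = 0.0133). Vwf, Cd34, Erg, Emcn and Cdh5 also passed in the shared change, which for these genes averages a difference at 120 h with levels of at most 0.227 FPKM in both groups at 96 h. Vwf, Cd34 and Erg, too, reached the filter only through Del(CBS1) at 120 h.

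**Figure D3:**
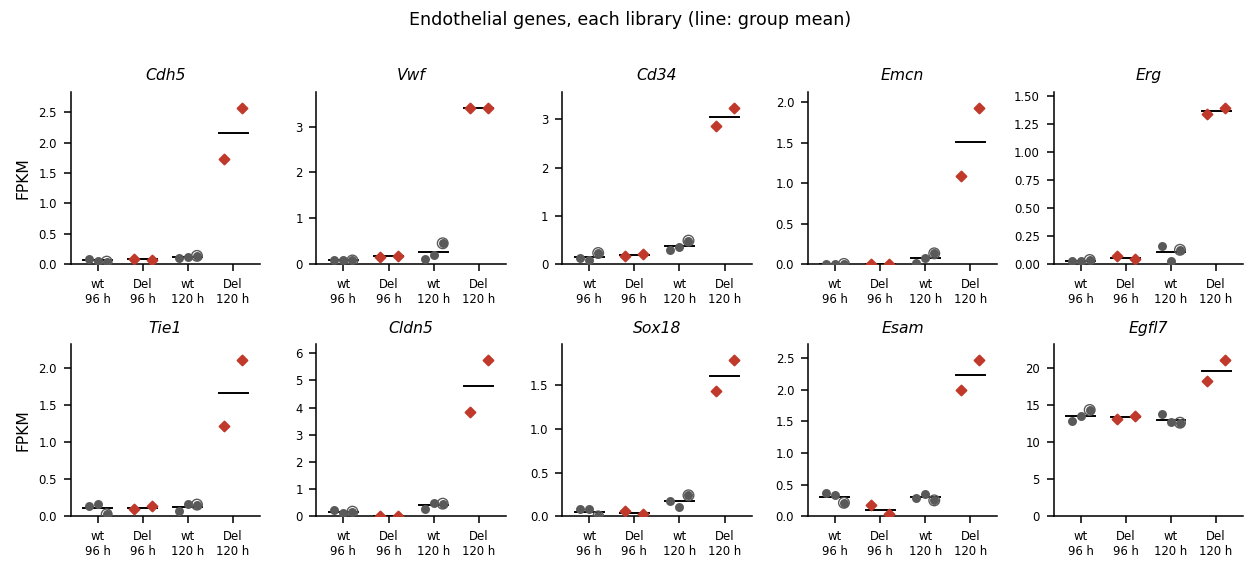
FPKM of 10 endothelial genes in each of the 10 libraries, drawn as dots (wild type, replicate 3 ringed), diamonds (Del(CBS1)) and lines (group means). At 120 h both Del(CBS1) libraries lie above the 3 wild-type libraries in all 10 panels, with Vwf at 3.41 and 3.42 FPKM in Del(CBS1). The genes are shown because they passed at 120 h, and 29.2% of all tested genes were separated at that stage in either direction.

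Markers of red blood cells were at or near 0. Hbb-bh1, an embryonic globin, was listed at 0 in all 10 libraries, Gata1 and Klf1, factors of red cells, stayed at or below 0.156 and 0.171 FPKM, and Hba-x at or below 0.0653 FPKM. The summed level of the 19 genes of the endothelium and blood list was 50.7 and 62.2 FPKM in Del(CBS1) at 120 h and 24.3, 21.8 and 34.3 FPKM in wild type. In the 17 libraries of 120 h outside this comparison the sum ranged from 14.4 to 148 FPKM with a median of 28.4 FPKM, so both Del(CBS1) values fell inside that range. Cdh5 reached 9.06 FPKM in 1 wild-type time-course library of 120 h and 0.404 FPKM in the other, so its level in FPKM differed more between those 2 wild-type libraries than between Del(CBS1) and wild-type replicates 1 to 3.

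Among the genes printed here, sequence from RefSeq promoters (GRCm38.p6) was available for 4 of the 7 list members that passed at 120 h, and is shown because these genes moved together. The 250 bases before each start site were searched on both strands for CAGGAAG and CCGGAAG, 2 forms of the core bound by ETS factors such as Erg, and no position can match both. Of these 4 genes, 2 held a match, compared with 5125 of 27025 genes (19%) and 5585 of 32851 windows (17%). A match is a description of the letters only. The 30-base windows around the matches are printed 5′ to 3′ on the strand of the gene, with the match in capitals.
Egfl7, chr2:26580982-26581011, plus strand: tgggagacaaaCAGGAAGgccatctctctg
Egfl7, chr2:26581023-26581052, plus strand: gctggtctttcCTTCCTGaggtgcagctgg
Egfl7, chr2:26583773-26583802, plus strand: gagaacacacaCAGGAAGtccggcgggaag
Emcn, chr3:137340893-137340922, plus strand: aagaagggtctCTTCCTGttcaaatcccat
The Egfl7 windows belong to 2 of its start sites, and the match lies 90, 49 and 81 bases before the start for Egfl7 and 174 bases before it for Emcn, on the opposite strand where the capitals read CTTCCTG.

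Genes of endoderm and notochord were examined likewise. All 11 tested genes of this list had a positive effect at both stages, with a median of 0.682 at 96 h and 1.94 at 120 h, but only Foxa1 and Chrd passed in the shared change and at 120 h. Of these, Foxa1 reached the filter only through Del(CBS1), as given above. Sox17, a factor of definitive endoderm that endothelium also expresses, was at 9.66 and 7.53 FPKM in Del(CBS1) against 0.494, 0.469 and 1.71 FPKM at 120 h, and at 6.01 and 7.32 against 3.77, 2.72 and 1.48 FPKM at 96 h. Foxa2, a forkhead factor of endoderm, node and floor plate, was at 4.35 and 5.83 against 0.264, 0.258 and 1.09 FPKM at 120 h, and Epcam, an epithelial adhesion molecule, at 22.7 and 26.4 against 4.16, 3.69 and 14.1 FPKM. The effects of these 3 genes at 120 h were 3.35, 3.26 and 2.01, with adjusted p = 0.0788, 0.0749 and 0.28 in limma. Replicate 3 was the highest wild-type library in each. Without it, 10 of the 11 genes passed at 120 h, including all 3 (adjusted p = 0.00174, 8.39e-04 and 4.49e-04), and the median was 2.61. The summed level of the list was 119.5 and 136 FPKM in Del(CBS1) at 120 h and 18.8, 17.3 and 63.7 FPKM in wild type, while the 17 other libraries of 120 h ranged from 7.24 to 172 FPKM.

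Nepn, which encodes nephrocan, a marker of gut endoderm, showed the largest passing rise at 120 h among genes without zeros, at 17.6 and 25.95 FPKM in Del(CBS1) against 0.474, 0.268 and 2.12 FPKM in wild type (effect 4.79 ± 0.669, adjusted p = 0.0448). Nkx6-1, a homeodomain factor of the ventral neural tube, was at 1.09 and 2.07 against 0.113, 0.221 and 0.2104 FPKM at 120 h (effect 2.54, adjusted p = 0.0384). Both Del(CBS1) libraries were above the 3 wild-type libraries for these genes at 120 h, as in 29.2% of all tested genes in either direction, and the groups overlapped for both at 96 h. Nkx6-1 reached the filter of 1 FPKM only through Del(CBS1) at 120 h, so its rise was set in part by the filter.

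**Figure D4:**
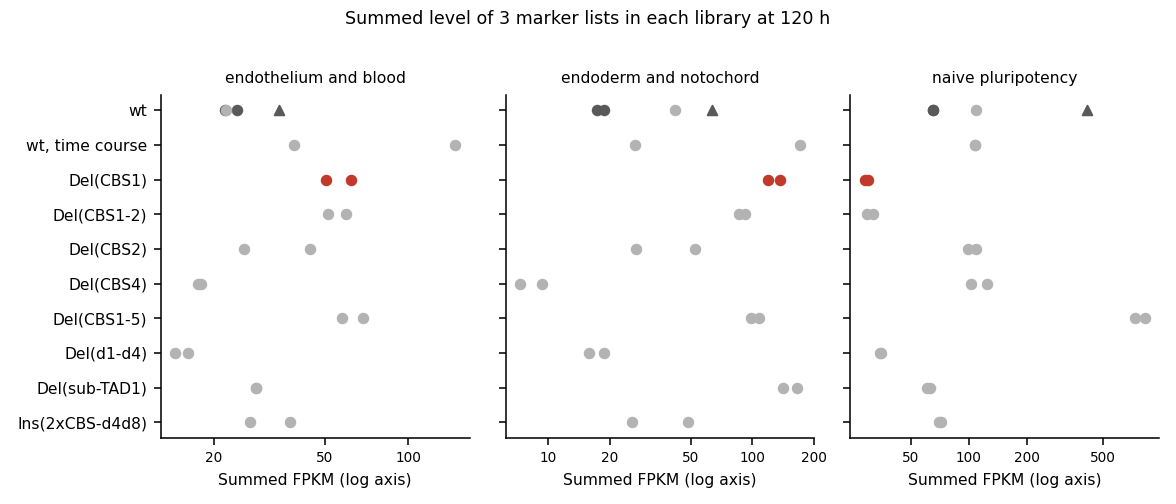
Summed FPKM (log axis) of the marker lists for endothelium and blood, endoderm and notochord, and naive pluripotency in every library of 120 h, one line per condition. Red points are Del(CBS1), dark points wild-type replicates 1 and 2, the triangle wild-type replicate 3, and pale points the libraries outside the comparison; the Del(CBS1) sums for naive pluripotency, 28.7 and 29.8 FPKM, lie below those of all wild-type libraries.

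Of the 15 tested genes of naive pluripotency none passed with all wild-type replicates, with 12 at an unadjusted p under 0.05 in the shared change. Nanog, a core pluripotency factor, was at 0.0652 and 0.129 FPKM in Del(CBS1) at 120 h and at 1.751, 1.51 and 11.5 FPKM in wild type, and Pou5f1 (Oct4) at 0.612 and 0.848 against 4.92, 4.95 and 58.6 FPKM. The third wild-type value is that of replicate 3. At 96 h Pou5f1 was at 26.4 and 28.5 FPKM against 27.2, 28.7 and 80.9 FPKM, and the Del(CBS1) libraries overlapped replicates 1 and 2. The effects at 120 h were -4.07 ± 1.13 and -3.80 ± 1.07 (adjusted p = 0.32 and 0.33 in limma). Without replicate 3 both passed (adjusted p = 0.00237 and 0.00181), and 6 of the list passed at 120 h, all lower. In the same fit 2 genes of the list rose and 6 fell in the shared change, and 1 rose and 2 fell at 96 h. The summed level of the list in Del(CBS1) at 120 h lay below the lowest of the 17 other libraries of that stage, 29.5 FPKM, in 1 library and above it in the other, and the Del(CBS1-2) line held that lowest value.

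Only 30 genes passed at 96 h. Beside Prrg2, which is listed at 0 in wild type, and Notum, the largest rises were those of Slc26a6, an anion exchanger, at 7.68 and 5.11 FPKM against 1.99, 1.79 and 1.897 FPKM, and Mbp, a gene of myelin that is also transcribed in other cells, at 6.98 and 7.01 against 3.88, 4.07 and 3.45 FPKM. The largest falls among annotated genes were those of Bmp3 and of Bhlhe40, a basic helix-loop-helix repressor, at 0.605 and 0.615 against 1.64, 1.59 and 1.61 FPKM, followed by Ebf3, a factor of neuronal and mesodermal development, at 0.382 and 0.418 against 1.01, 0.891 and 0.755 FPKM, and Hspa12a, at 1.27 and 1.404 against 2.75, 2.396 and 2.78 FPKM. All of these were separated between the groups at 96 h, as were 28.7% of all tested genes. The effects were 1.68, 0.87, -1.26, -1.27, -0.97 and -0.93, and the adjusted p-values of limma lay between 0.00862 (Bmp3) and 0.0451 (Ebf3).

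A difference between the stages passed in 13 genes (0.0884%), 7 with the more positive effect at 120 h (0.0476%) and 6 with the more negative one (0.0408%), and without replicate 3 in 235 (1.61%). Of the 13, 8 are genes listed at 0 in part of the libraries. The others were Cdh5, Cldn5, Sdk2, Hmox2 and Rab30. Hmox2, a heme oxygenase, was at 19.8 and 20.9 FPKM against 32.4, 30.8 and 30.9 FPKM at 96 h and at 21.7 and 19.9 against 19.2, 19.1 and 19.3 FPKM at 120 h, with an effect of -0.62 (adjusted p = 0.0232) and 0.11 (adjusted p = 0.66). Sdk2, a synaptic adhesion molecule, was at 2.002 and 2.14 against 3.07, 3.02 and 3.04 FPKM at 96 h and at 4.46 and 4.22 against 3.67, 3.88 and 3.58 FPKM at 120 h. Rab30, a small GTPase of the Golgi, was at 1.54 and 1.67 against 1.37, 1.41 and 1.44 FPKM at 96 h and at 1.57 and 1.57 against 2.22, 2.24 and 2.34 FPKM at 120 h.

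The position of genes along the chromosomes was examined next. The median shared change of the 19 autosomes lay between -0.018 and 0, and at either stage between -0.022 and 0.013. Among 294 windows of at most 50 neighboring tested genes, a single one stood apart, with a median shared change of 0.296, whereas the others lay between -0.122 and 0.077. Its 50 genes start between positions 127197459 and 128439777 of chromosome 7 (mm10), and the median was 0.344 at 96 h and 0.207 at 120 h. Of the 50, 41 had a positive shared change, compared with 47.9% of all tested genes. None passed singly, with 27 at an unadjusted p under 0.05. Without wild-type replicate 3 the median was 0.183 and 12 passed. As an example picked after its values were seen, Sephs2, a selenophosphate synthetase, was at 56.2 and 55.8 FPKM in Del(CBS1) against 45.5, 44.4 and 36.3 FPKM at 96 h and at 51.6 and 50.9 against 41.5, 40.2 and 35.5 FPKM at 120 h. Its groups were separated at both stages, and replicate 3 was the lowest wild-type library.

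The level of this window also differed between wild-type libraries. Taken as the median over its genes of the log2 difference from the median of all libraries of the stage, it was 0.26 and 0.361 in Del(CBS1) at 96 h, 0 and 0.011 in wild-type replicates 1 and 2, -0.122 and -0.124 in replicates 3 and 4, and 0.244 and 0.238 in the wild-type time course. At 120 h it was 0.176 and 0.093 in Del(CBS1), 0.027 and 0.018 in wild-type replicates 1 and 2, -0.285 and -0.274 in replicates 3 and 4, and 0.123 and 0.327 in the time course. The Del(CBS1) libraries thus lay above wild-type replicates 1 to 4 at both stages. They also lay above the time course at 96 h, whereas at 120 h 1 of them lay inside its range and the other below it. At 120 h it was 0.119 and 0.118 in Del(CBS1-2), 0.263 and 0.265 in Del(CBS4) and 0.21 and 0.28 in Ins(2xCBS-d4d8), against -0.253 and -0.346 in Del(CBS2) and -0.294 and -0.309 in Del(d1-d4). The window was chosen by its value and was not tested, and DNA copy number was not measured in these libraries.

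The 13 tested genes of the Y chromosome had a median of 0.487 at 96 h and 0.409 at 120 h, with medians of 0.368 to 0.517 in the single Del(CBS1) libraries. The summed level of 6 Y-linked genes was 49.7 and 49.3 FPKM in Del(CBS1) at 96 h, against 41.4, 41.9 and 25.8 FPKM in wild type, and 41.97 and 44.01 against 35.7, 35.7 and 22.4 FPKM at 120 h. Replicate 3 was the lowest library at both stages. The other libraries ranged from 28.3 to 51.4 FPKM at 96 h (median 48.1 FPKM) and from 22.2 to 46.6 FPKM at 120 h (median 40.03 FPKM), so the Del(CBS1) sums lay inside both ranges and wild-type replicates 1 to 3 below the median at both stages. Uty, a Y-linked histone demethylase, rose by 0.26 ± 0.0393 (adjusted p = 0.0467). Mitochondrially encoded genes had medians of 0.286 at 96 h and -0.212 at 120 h over 23 tested genes.

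The surroundings of HoxD were examined as a list. Of 15 tested genes on the flanks of the cluster, none passed at either stage or in the shared change, and the median was 0.002, with 3 at an unadjusted p under 0.05 in the shared change. Mtx2, which encodes a mitochondrial import protein and lies next to Hoxd1, was at 18.4 and 19.1 FPKM against 21.9, 22 and 22.5 FPKM at 96 h and at 21.3 and 23.1 against 23.2, 22.6 and 24.8 FPKM at 120 h (shared change -0.16 ± 0.0429, adjusted p = 0.18). Lnpk, on the other flank, changed by -0.17 ± 0.0512 (adjusted p = 0.23). Without replicate 3, only Ttc30b, 1 of 15, passed in the shared change, and it was higher by 0.291 (adjusted p = 0.0124 in limma). In the same fit 1 gene of this list rose at 96 h and 1 fell at 120 h. Inside the cluster, the long noncoding RNA Haglr was the only gene that passed in the shared change, at 4.73 and 6.98 against 9.78, 10.9 and 9.91 FPKM at 96 h and 4.502 and 4.14 against 7.301, 6.28 and 7.13 FPKM at 120 h. None of the 15 tested genes for CTCF and cohesin passed in the shared change or at either stage, with a median of -0.021 and 1 at an unadjusted p under 0.05, and none of 9 Hoxa, 9 Hoxb and 6 Hoxc genes passed. Without replicate 3, 2 Hoxa genes fell in the shared change, 2 Hoxa and 2 Hoxb genes rose at 96 h and 1 Hoxc gene fell at 120 h.

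With all wild-type replicates, the remaining lists held few or no passing genes. Of 39 tested imprinted genes, Xlr3b rose and Dlk1 fell, with a median of 0.186, and without replicate 3 10 rose and 6 fell, with a median of 0.018. Grb10, an imprinted adaptor protein, was at 2.85 and 3.02 FPKM in Del(CBS1) at 120 h and at 21.8, 22.1 and 178 FPKM in wild type, and at 3.55 and 3.25 against 19.95, 19.1 and 105 FPKM at 96 h, and its adjusted p in the shared change was 0.11 with replicate 3 and 8.37e-06 without it. None of the 24 cell-cycle, 22 glycolysis and hypoxia, 17 p53 target, 16 somite and muscle, 19 collagen and matrix or 26 ribosomal protein genes tested passed, with medians of -0.057, 0.103, -0.075, -0.217, 0.054 and -0.013. The same was true of 18 amino acid and ER stress genes (median 0.041), 15 DNA methylation genes (-0.073), 12 interferon response genes (-0.116), 12 mitochondrially encoded mRNAs (0.066), 11 epiblast and primitive streak genes (0.142), 10 germ cell genes (-0.27) and 7 cardiac genes (-0.131). Over the 22 lists with more than 3 tested genes and no passing gene in the shared change, 66 of 327 genes had an unadjusted p under 0.05, compared with 12.8% of all tested genes.

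Without wild-type replicate 3, 50 genes of these 22 lists passed in the shared change, 21 higher and 29 lower, beside 5.51% of all tested genes. The somite and muscle list held the most falls of these lists: 9 of its 16 genes fell and 1 rose in the shared change, with a median of -0.303. At 96 h 8 fell, with a median of -0.715, whereas at 120 h 3 rose and 1 fell, with a median of -0.03. The fall of the list was thus mainly that of 96 h. In that fit the 96 h libraries differed in estimated age, given below, with 93 and 93 h in Del(CBS1) and 100 and 99 h in wild type. At 120 h the ages were 125 and 126 h in both groups. The part of age in these falls was not tested. Among the falls, named after its values were seen, Pax3, a paired-box factor of dermomyotome and neural tube, changed by -1.34 at 96 h (adjusted p = 0.0135 in limma without replicate 3). Fst (follistatin), a secreted activin antagonist, was the gene that rose in the shared change, by 0.38 (adjusted p = 0.0167). Of the glycolysis and hypoxia genes 3 rose and 3 fell, of the collagen and matrix genes 4 rose and 2 fell, of the epiblast and primitive streak genes 2 rose and 3 fell, of the DNA methylation genes 2 rose and 2 fell, and of the germ cell genes 2 rose and 1 fell. The median changed sign without replicate 3 for germ cell genes (0.372), glycolysis and hypoxia (-0.102), cardiac genes (0.082), interferon response (0.035) and p53 targets (0.028).

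Of 11 spinal cord and neural genes, Pax6 fell in the shared change, and without replicate 3 3 rose and 2 fell. Among lists with 3 tested genes, only Uty of the Y-linked list passed; germline genes silenced by DNA methylation had a median of -1.81, 2-cell-like genes of -2.19, clustered protocadherins of 0.075 and X inactivation genes of -0.096. Without replicate 3 the median of the 2-cell-like genes was 0.003 and that of the protocadherins -0.069, while the germline genes had a median of -1.61, with 2 of 3 passing, and the X inactivation genes of -0.085.

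The developmental age of each library was estimated by least squares against the wild-type time course over 1000 genes. At 96 h the Del(CBS1) libraries were placed at 93 h and 93 h and the wild-type libraries at 100, 99 and 91 h, replicate 3 being the youngest. The difference of -3.667 h gave p = 0.4 in an exact two-sided permutation test, whose smallest attainable p with 2 against 3 libraries is 0.1. Results of 96 h without replicate 3 therefore compare Del(CBS1) with wild-type libraries that were all placed later. At 120 h the estimates were 125 and 126 h against 125, 126 and 125 h (exact p = 1).

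The change was finally compared with a line that shares the deletion. Del(CBS1-2) was made by deleting CBS2 in Del(CBS1) cells, and its libraries of 96 h and 120 h were set against those of Del(CBS2) and Del(d1-d4), a contrast that uses no library of the comparison above. Here 3554 of 14963 genes passed (23.8%), 1894 higher (12.7%) and 1660 lower (11.1%). Of the 87 shared-change genes outside HoxD, 83 were tested, 74 moved in the same direction and 55 passed in that direction. Over all 14370 genes tested in both fits, 66.3% moved in the same direction and 20.1% passed in it. The libraries of 96 h differed in estimated age, without the overlap seen in the main comparison. Del(CBS1-2) was placed at 91 and 92 h, and Del(CBS2) and Del(d1-d4) at 99 to 100 h. At 120 h the estimates were 125 and 125 h against 124 to 126 h. The part of age in these counts was not tested. In the window on chromosome 7 described above, the median difference was 0.527, and 36 of 50 genes passed higher and 1 lower. This difference includes a low level of Del(CBS2) and Del(d1-d4), which lay below wild-type replicates 1 and 2 at both stages. At 96 h their window levels were -0.377 to -0.133, against 0.314 and 0.321 in Del(CBS1-2). Without the genes listed at 0 in part, 70 of 75 genes moved in the same direction and 54 passed. Del(CBS1-2) also lacks CBS2 and keeps any feature of the Del(CBS1) clone, so the deletion and the clone cannot be told apart here either.

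Dlk1 was lower in the derived line by 1.40 log2 units (adjusted p = 0.00141), and Sox6, Fgf18, Bmp3 and Eya1 changed by -0.97, -1.22, -1.06 and -0.99 (adjusted p = 2.02e-05, 4.00e-04, 0.00325 and 3.41e-04). The mean level of Dlk1 at 120 h was 5.03 FPKM in Del(CBS1-2), 20.3 FPKM in Del(CBS2) and 27.7 FPKM in Del(d1-d4). It was also low in lines that keep CBS1, at 2.14 FPKM in Del(CBS4) and 4.77 FPKM in Ins(2xCBS-d4d8). Among rising genes, Notum, Ocln, Sp8 and Xlr3b were higher by 1.71, 1.12, 0.97 and 0.58 (adjusted p = 8.39e-06, 0.00165, 2.26e-05 and 0.0165). Myl3 was listed at 2.91 and 4.03 FPKM in Del(CBS1-2) at 120 h and at 0 in Del(CBS2) and Del(d1-d4), and had values in Del(sub-TAD1) at 120 h, at 6.98 to 8.94 FPKM. Bhlhe40 and Gng3 passed in the opposite direction, at 0.91 and 0.77 (adjusted p = 0.00431 and 0.00206). Of the 7 endothelial list genes that passed at 120 h, Cldn5, Sox18, Esam and Egfl7 were higher in the derived line by 1.51, 1.12, 0.80 and 0.41 (adjusted p = 0.0344, 0.0333, 0.0224 and 0.00999). Cdh5, Emcn and Tie1 had values of 1.04, 0.82 and 1.07 (adjusted p = 0.12, 0.15 and 0.16). All values of the derived line average 96 h and 120 h, so for these 7 genes they are not comparable with the effects at 120 h alone.

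When the Del(CBS1) libraries themselves were set against Del(CBS2) and Del(d1-d4) in place of wild type, 2612 of 14939 genes passed (17.5%), 1671 higher (11.2%) and 941 lower (6.3%).

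**Figure D5:**
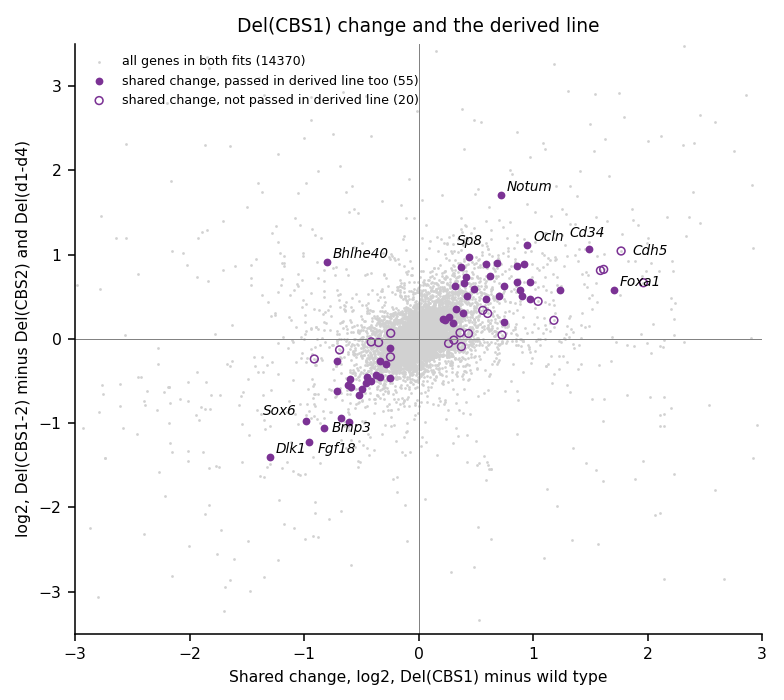
Shared change of Del(CBS1) against wild type (x axis, log2) and mean change of Del(CBS1-2) against Del(CBS2) and Del(d1-d4) (y axis, log2) for 14370 genes (grey, 62 outside the axes). Purple points are the 75 genes of the shared change without zeros, filled for the 55 that passed in the derived line, of which 54 lie in the quadrants of equal sign and Bhlhe40 in the upper left one.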

How the data were processed

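RNA-seq libraries (poly-A selected, stranded, paired-end) were processed by the authors, who trimmed adapters with cutadapt 1.16, aligned reads to mm10 with STAR 2.7.7a, kept uniquely mapped reads and computed FPKM with Cufflinks 2.2.1 on a filtered Ensembl annotation. The deposited FPKM values were used without further scaling. Because Cufflinks can list a well-expressed gene at exactly 0, values of 0 cannot be read as absence, and 641 tested genes were listed at 0 in part of the libraries of a stage. Depth was estimated from the steps between low FPKM values, of which 78.1% to 80.66% came out whole within 0.02 fragments, so no count test was run. In wild-type replicate 4 this share was 98.07% at 96 h and 97.8% at 120 h. It was 97.97% to 98.13% in the time-course libraries of these stages, and 97.68% to 98.07% in Del(CBS4) and Ins(2xCBS-d4d8) at 120 h. Values of these libraries are set beside the 10 libraries across this difference, whose cause was not tested.

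Tests were made with limma 3.58.1 in R 4.3.3 (lmFit and eBayes) on log2(FPKM + 0.1) over the 10 libraries in 4 groups, for genes with a mean of at least 1 FPKM in at least 1 group, with Benjamini-Hochberg adjustment at 0.05. The derived line was tested in the same way. The fit of the 10 libraries was tested on simulated data with known changes, scored for the shared change only. Alternatives were a pseudocount of 1, a filter of 5 FPKM or none, median-ratio scaling, trended and robust variance, a replicate block, library age as a covariate, wild-type replicates 1 to 4, all 61 libraries, and each library left out in turn. Leaving out wild-type replicate 3 at both stages, and leaving out genes listed at 0 in part, were added after seeing the data.

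By rule, the genes named outside HoxD are those with an established symbol that passed: in the shared change the 15 largest rises and falls with groups not overlapping at both stages, at each stage the 4 largest rises and falls, the 4 largest stage differences in each direction, and passing members of the lists. The rule also covers genes that flank HoxD, passing or not. Kdr and Plvap, and Hbb-bh1, Gata1, Klf1 and Hba-x, which fell below the filter, were named outside the rule as list members. Cd34, Flt4, Sephs2, Pax3, Fst, Sox17, Foxa2, Epcam, Nanog, Pou5f1, Grb10, Hmox2, Sdk2, Rab30 and Gm22208 were named outside this rule, after their values were seen. Some genes are not reported here. The comparison, the members and the lists were chosen with earlier results of these data known. The table's locations are those of the deposited annotation, in mm10.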

Additional observations from a re-analysis of the deposited data

Results flagged for a closer look

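The effect of the deletion differed between 96 h and 120 h in 13 genes by the test of the difference itself (limma interaction contrast, adjusted p below 0.05). Among genes with values in all or nearly all libraries, the log2 effect exceeded that of 96 h at 120 h by 4.51 for Cldn5, 3.23 for Cdh5, 0.76 for Sdk2, 0.73 for Hmox2 and, in the other direction, was -0.68 for Rab30. The Cldn5 value includes an effect of -1.24 at 96 h, where Del(CBS1) held about 1 and 0 fragments. Cldn5 and Cdh5 reached the filter of 1 FPKM only through Del(CBS1) at 120 h. For them a larger effect at 120 h was set in part by the filter. Of the 8 genes listed at 0 in part of the libraries, 7 are reported, and in these the difference was 6.96 for Snord89, 5.18 for Myl3, -5.74 for Pcsk7, -5.94 for Prrg2, -6.33 for Rb1, -7.12 for Atat1 and -8.17 for Gm22208. These last 7 values depend on the added 0.1 FPKM and on whether an exact 0 is an estimate of expression, which was not tested. With those genes left out of the test, an alternative added after seeing the data, 2 genes passed.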

How the results depend on the processing

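Of the gene effects recomputed under the alternatives, none that passed changed its sign. Without wild-type replicate 3, however, the median of 10 of the 35 gene lists changed sign in the shared change, of 10 at 96 h and of 7 at 120 h. Counts of passing genes for the shared change (88), 120 h (59), 96 h (30) and the difference between stages (13) depended on the settings. A pseudocount of 1 gave 95 at 120 h. With a filter of 5 FPKM, which tests fewer genes, 55 genes passed in the shared change and 14 at 120 h, and with no filter 113 passed at 120 h and 55 in the difference. Trended and robust variance gave 24 at 120 h and 6 in the difference. With all 61 libraries in 1 fit the counts were 682 (shared), 365 (120 h), 127 (96 h) and 5 (difference), and with wild-type replicates 1 to 4 they were 19, 32 and 1 for the first 3. Library age as a covariate gave 529, 109, 224 and 49. Of the shared calls, 44.8% were higher with that covariate and 45.7% with all 61 libraries. Without wild-type replicate 3 at both stages the counts were 804, 393, 455 and 235, and without genes listed at 0 in part 2 passed in the difference. The cause of these changes was not tested.

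With each library left out in turn, the shared change ranged from 28 (without wild-type replicate 2 of 120 h) to 226 (without replicate 3 of 96 h), 120 h from 25 (without replicate 2) to 157 (without replicate 3 of wild type at 120 h), 96 h from 5 (without wild-type replicate 1 of 120 h) to 108 (without replicate 3 of 96 h) and the difference from 15 (without wild-type replicate 2 of 96 h) to 60 (without replicate 3 of 120 h). The derived line ranged from 2260 to 3997 and Del(CBS1) against the other lines from 1603 to 2849. In all 10 of these fits of the main comparison, 19 shared calls were kept, of which 9 are genes listed at 0 in part of the libraries. The other 10 included Xlr3b, Cdh5, Bmp3, Chrd, Foxa1, Id1, Sp8 and Stard10. With wild-type replicates 1 to 4, 3 of these 10 passed, among them Chrd and Stard10, whereas Xlr3b, Cdh5, Bmp3, Foxa1, Id1 and Sp8 had adjusted p = 0.393, 0.0518, 0.428, 0.077, 0.0769 and 0.333 in limma. Dlk1, whose fall is described above, passed with these replicates (adjusted p = 0.0373). The falls of Sox6, Pax6, Eya1, Lfng and Fgf18 did not, with adjusted p = 0.128, 0.474, 0.24, 0.275 and 0.24 in limma. Dlk1 and these falls were not among the 19 kept calls.

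The replicate numbers did not pair Del(CBS1) with wild type: deviations of same-numbered libraries of a stage correlated at -0.036 to 0.074 (4 pairs). Same-numbered wild-type libraries of the 2 stages deviated together, at 0.159, 0.161 and 0.387 for replicates 1, 2 and 3, as did replicates 1 and 2 crossed, at 0.156 and 0.122. The shared change without a block treats these 6 libraries as independent. With the replicate number as a block, 191 genes passed in the shared change, 135 at 120 h, 38 at 96 h and 27 in the difference. An adjusted p near 0.05 is limited by 2 Del(CBS1) libraries a stage, and depth by 3 fragments, 0.0823 to 0.106 FPKM for a transcript of the length of Cldn5.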
